A study of Rattus norvegicus with 10 samples.

Results

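The RNAs described here carry accessions that begin with XR_, the RefSeq prefix for noncoding transcripts predicted by automated genome annotation. They were 1698 RNAs, chosen by name as every non-control probe whose target name begins with XR_ and whose probe is named after that accession, out of 24674 entries on a rat lncRNA array. Each was read by 1 probe printed in 3 spots, which gave 5094 spots per array. A further 4 XR_ RNAs were read only by the manufacturer's own probes, in 10 spots each, and were left out by the rule. Total RNA came from the lumbar enlargement, the spinal segment that serves the hind limbs, of 10 adult male Sprague-Dawley rats, with 1 one-colour array per rat. The morphine-tolerant (MT) group was rats 1 to 5, which received 10 μg of morphine in 10 μl by intrathecal injection 2 times a day for 7 days, and tissue was taken an hour after a last morning injection. The normal saline (NS) group was rats 6 to 10, given 10 μl of saline on the same schedule. The labels name no other allele or agent, and a litter or cage is not given in the sources used here.

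Long noncoding RNAs are transcripts without a long open reading frame. Some act on chromatin, splicing or the stability of other RNAs, and many have no known role. An XR_ record is a model: it is kept, merged or withdrawn as the annotation of a genome is revised, and it may stand for a noncoding gene, a noncoding isoform of a coding gene or a transcribed pseudogene. Opioid tolerance, the loss of analgesia on repeated dosing, has been linked in the dorsal horn to neurons and to activated microglia and astrocytes. None of the 1698 accessions was listed in the current RefSeq gene table (GRCr8), so 0 could be given a gene name, a position or a sequence, and members are named by accession. Sequences similar to a coding gene or to each other could share signal on a probe, and neither this nor the strand could be checked here.

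Markers of the cell types of spinal cord were looked for. All 5 measured neuron mRNAs and 5 of 5 of oligodendrocytes were well above background on 10 of 10 arrays. So were 3 of 3 of astrocytes, 5 of 5 of microglia and Hoxd10, the only mRNA of the lumbar list that could be matched. Of the motor neuron list 2 mRNAs were matched, and 1 was well above background on all 10 arrays. Of all mRNA probes 72.4% were so too, as were Acta1 and Myh1 of muscle and Prph and Trpv1 of dorsal root ganglion. These counts alone therefore do not set the tissue apart. The arrays fell into 3 sets that share a scan time in the file headers, taken here as slides. Slide 1 held MT rats 1, 3, 4 and 5, slide 2 held MT rat 2 with NS rats 6, 7 and 10, and slide 3 held NS rats 8 and 9. Slide 3 stood apart. Its arrays had a median intensity of 42.1 and 29.8, against 74.4 to 101.4 on the other 8 arrays, and the XR_ spots had a median of 37.1 and 25.7, against 79.2 to 107.1. As slide 3 held only NS rats and slide 1 only MT rats, the log2 fold changes of the XR_ RNAs compared between the groups are given below with slide 3 and without it.

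Detection was assessed first. An RNA was called detected on an array if more than 50% of its spots were flagged well above background by the scanner software. Of the 1698 XR_ RNAs, 966 (56.9%) were detected on all 10 arrays and 210 (12.4%) on none. The share detected per array was 81.5% to 84.5% in the MT group, 78.2% to 80.9% on the NS arrays of slide 2, and 61.8% and 56.9% for NS rats 8 and 9. The group means were 82.9% ± 1.40 (SD, n = 5) for MT and 71.2% ± 10.99 (SD, n = 5) for NS. The 5 MT arrays lay above all 5 NS arrays, and most of the distance between the means came from slide 3: the difference was 11.7 percentage points over 10 arrays and 3.79 without slide 3.

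**Figure D1:**
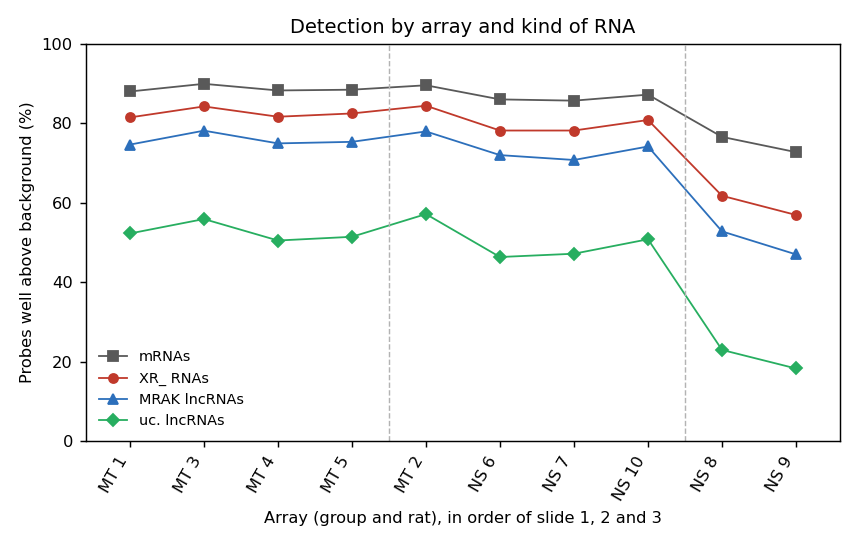
Share of probes well above background (y axis, percent) on each array (x axis, ordered by slide, with dashed lines between slides) for XR_ RNAs, mRNAs and 2 other kinds of lncRNA on the array, named MRAK and uc. by their accessions. The XR_ share ran from 78.2% to 84.5% on slides 1 and 2 and was 61.8% and 56.9% on slide 3.

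A block of 229 XR_ RNAs (13.5%) was detected on all 8 arrays of slides 1 and 2 and on neither array of slide 3, and no XR_ RNA was detected on slide 3 alone. For mRNA probes the corresponding share was 6.56%, and for the MRAK lncRNAs, orthologues of mouse cDNAs, it was 14.0%. It was 15.6% for the uc. lncRNAs, 14.0% for the MRuc lncRNAs, orthologues of mouse UCSC genes, and 12.4% for the other lncRNAs. From the 8 other arrays to slide 3 the mean detected share fell by 22.1 percentage points for XR_ RNAs, by 13.2 for mRNA probes and by 24.9 for MRAK lncRNAs. These are descriptions of the probes on these arrays, with no test.

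Few XR_ RNAs were detected in one group and missed in the other. On all 5 MT arrays and at most 1 NS array, 24 were detected, and 5 of these were on no NS array. This was 1.41% of the XR_ RNAs, 0.894% of mRNA probes and 1.45% of MRAK lncRNAs. It was 2.19% of MRuc, 1.35% of uc. and 1.63% of the other lncRNAs. The reverse was 0 in every kind of RNA on the array. It needs detection on both slide 3 arrays, which hold only NS rats and on which fewer RNAs were detected. In the reverse count group and slide 3 cannot be told apart. Each of the 5 on no NS array was missed in NS rats 6, 7 and 10 and detected in MT rat 2, on the same slide. The part of slide 3 in the count of 24 was not tested. Of those 5, XR_006726 had the clearest difference. Its log2 intensity was 4.96, 4.05, 4.95, 4.96 and 4.88 in MT rats 1 to 5. In NS rats 6 to 10 it was 3.05, 4.03, 4.31, 3.47 and 2.68. MT rat 2 lay among the NS rats and the 4 other MT rats lay above them all. Its NS signals were not well above background. An NS mean was therefore taken from the higher of its own signal and the lowest signal well above background on each array. Against that mean it was 2.13-fold higher in MT (measured means 4.76 and 3.51, limma adjusted p = 0.128). Probes not well above background can read above that lowest signal, so this is not a strict lower bound. The measured log2 difference was 1.26, 1.47 without slide 3 and 0.92 in the deposited table. It was 0.28 with normexp background correction, whose added offset of 50 makes differences between dim signals smaller. For XR_005690 no fold is given, since NS rats 8 and 9, at 4.61 and 4.21, read above all MT rats (3.23 to 4.07) though not well above background. The fold of the remaining 3, set against such an NS mean, was below 1.

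Of the 1698, 1369 passed the filter used for all tests, detection on at least 5 of 10 arrays, and 329 did not. The 5 detected on all MT arrays and on no NS array passed it through the MT group alone, so their p values are not free of the filter. The tested XR_ RNAs covered the whole intensity scale, from a mean log2 of 2.62 to 16.9, with a median of 7.40 and quartiles of 4.98 and 10.8. The levels of different probes depend on their sequences and were not set against each other. Repeat spots of one XR_ RNA on one array had a median SD of 0.073 on the log2 scale, and arrays of one group had a median SD of 0.242. The spread within a group was thus wider than that between spots. It holds differences between slides as well as between rats, since neither group lay on a single slide. Below a log2 of 5, where 347 of the tested XR_ RNAs lay, the 2 values rose to 0.242 and 0.365.

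Some XR_ RNAs hardly varied. XR_005469 lay between 11.13 and 11.28 on all 10 arrays (SD 0.042). XR_006434 lay between 14.79 and 14.90 (SD 0.042). XR_006209 lay between 6.33 and 6.47 (SD 0.044), and XR_009559 between 6.67 and 6.83 (SD 0.047). These were the 4 with the smallest SD among those detected on every array, and slide 3 did not stand apart in them.

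For the rest, the slide 3 arrays were the main feature of the data. Both lay below all 8 other arrays in 594 of the 1362 XR_ RNAs with a value on every array (43.6%, against 17.9% of all 20221 RNAs so measured and 13.1% of mRNAs). Both lay above the others in 184 (13.5%, against 22.7% of all RNAs and 24.1% of mRNAs). The median difference, slide 3 minus the others, was -0.22 on the log2 scale for XR_ RNAs, 0.10 for mRNAs and 0.04 for MRAK lncRNAs. It was as low in the uc. lncRNAs, transcripts of ultraconserved regions, at -0.25, and both slide 3 arrays lay below all others in 31.3% of them. The share was similar in dim and bright XR_ RNAs: both slide 3 arrays lay below all others in 40.7% of XR_ RNAs under a log2 of 5 and 49.8% of those above 11, against 24.8% and 10.1% of mRNAs in the same bands. Slide 3 was lower by more than 1 log2 unit in 195 XR_ RNAs and by more than 2 in 23. Scan time, array brightness and the 2 rats themselves cannot be told apart on this slide.

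**Figure D2:**
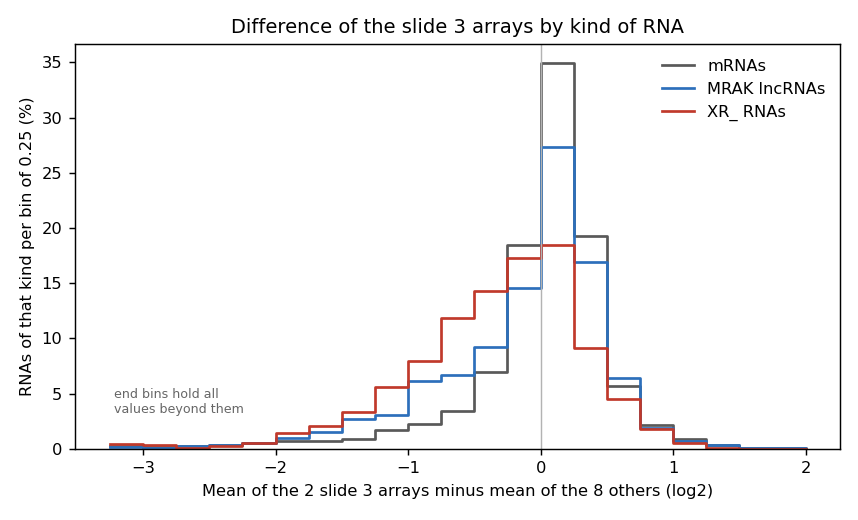
Distribution of the difference between the mean of the 2 slide 3 arrays and the mean of the 8 others (x axis, log2 units) for XR_ RNAs, mRNAs and MRAK lncRNAs (y axis, percent of each kind per bin of 0.25). The XR_ curve is shifted to the left, with a median of -0.22 against 0.10 for mRNAs.

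In single members the gap was wide. XR_007274, singled out after its values were seen as the widest gap of all, read 6.72 and 6.59 in NS rats 8 and 9, against 10.82 to 11.29 in the 8 other rats. In 18 of the 1362 XR_ RNAs (1.32%, against 1.21% of mRNAs, 0.304% of MRAK and 5.35% of uc. lncRNAs) the sorted values of the 10 arrays held a gap of more than 2 log2 units. NS rats 8 and 9 made up the low side in 13 of them, with gaps of 2.04 to 4.10. The other 5 are described with the comparisons they belong to.

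Members were then grouped by their profile over the 10 arrays. Of the XR_ RNAs with an SD of at least 0.3, which were 553, average linkage on Pearson r placed 324 in 17 groups of 5 or more members joined at a mean r of 0.9. These groups describe 10 arrays on 3 slides, and no test was made of them. In 8 groups with 227 members slide 3 lay below all other arrays for every member, and in 3 groups with 22 members it lay above them. The largest group held 159 XR_ RNAs. Its mean profile was flat from 0.22 to 0.35 above each RNA's own mean on the 8 arrays of slides 1 and 2 and fell to -1.12 and -1.13 in NS rats 8 and 9. Its most typical members were XR_007146, XR_009355, XR_007395 and XR_006046 (r of 0.996 to 0.997 with the group mean). The median log2 difference between MT and NS in this group was 0.44 over 10 arrays and -0.05 without slide 3, and 13 of its members met the criteria for a difference between the groups given below. The mRNAs with the closest profile among 3887 varying mRNAs were Msh4, Ctnna2, Krt80 and Or6d14, of meiosis, cell adhesion, keratin filaments and the olfactory receptor family. Over the 8 other arrays the r of these 4 with the group fell from at least 0.994 to between -0.37 and 0.94.

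The second group of 29 separated all 3 slides. It was represented by XR_009115, XR_007296, XR_006529 and XR_006102 and was high on slide 2 (0.39 to 0.60, MT rat 2 included), near or below the mean on slide 1 (-0.19 to -0.03) and low on slide 3 (-0.94 and -0.81). Its nearest mRNAs were Hemgn, Or1e18, Or51a25 and Cldn34d, which kept an r of at least 0.983 without slide 3. The third group of 22 (XR_005995, XR_005917, XR_006880 and XR_006151) was highest in MT rat 3 (0.52) and MT rat 1 (0.28), lay between 0.04 and 0.16 in the other MT rats and in NS rats 6, 7 and 10, and was low on slide 3 (-0.66 for both arrays). Des, Tfap4, Sparc and Bex4 had the most similar profiles, and their r stayed between 0.90 and 0.97 on 8 arrays. The fourth, of 15 dim XR_ RNAs (XR_009352, XR_008707, XR_006721 and XR_008361), was low mainly in NS rat 9 (-1.50, against -0.43 in NS rat 8).

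**Figure D3:**
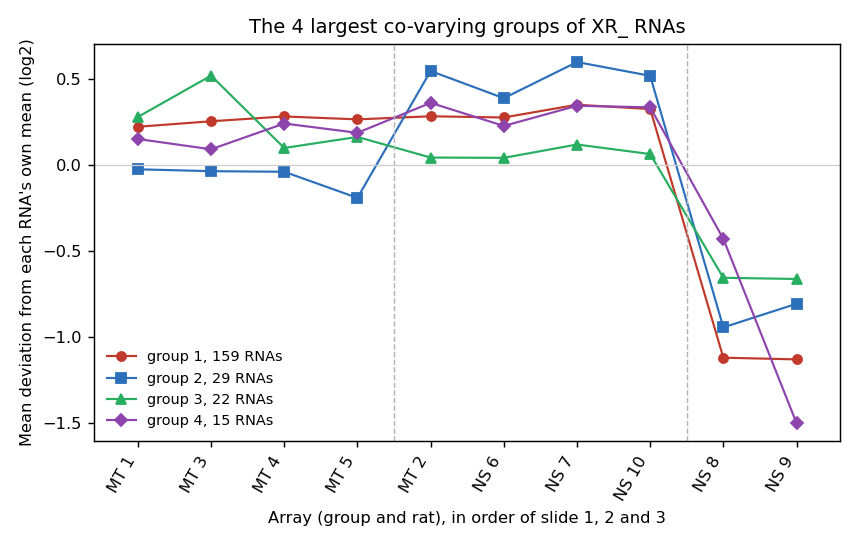
Mean deviation from each RNA's own mean (y axis, log2 units) on each array (x axis, ordered by slide) for the 4 largest co-varying groups of XR_ RNAs, with 159, 29, 22 and 15 members. All 4 lines fall on the slide 3 arrays, and the group of 29 is also high on all 4 arrays of slide 2.

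With each slide's own mean removed, a new grouping of the 553 placed 101 in 14 groups, the largest of 19 members. That group was high in MT rat 3 (0.43) and low in MT rats 4 and 5 (-0.28 and -0.26), and a group of 8 that holds XR_008107 was the opposite, at -0.41 in MT rat 3 and 0.28 in MT rat 4. In a further group of 7 the contrast lay within the NS group, with NS rat 7 at -0.80 and NS rat 10 at 0.59. Neighbouring accession numbers seldom meant a shared profile: of 69 pairs whose numbers differ by 1, the median slide-centred r was 0.13, against 0.02 over all 152628 pairs, and 1 pair, XR_009079 with XR_009080, exceeded 0.9 (r = 0.965).

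The question of the design is which RNAs differ in the tolerant cord. Read as a linear fold above 1.5 with an unadjusted limma P below 0.05, the study's criteria were met by 34 XR_ RNAs higher and 6 lower in MT, 2.48% and 0.438% of the 1369 tested. The background, the share of all 20284 RNAs tested that met them, was 1.74% higher and 0.996% lower. No XR_ RNA passed a limma adjusted p of 0.05 over all RNAs tested, which 0.197% of all RNAs did, and the count at an unadjusted P below 0.05 was 210 (15.3%, against 16.4% of all RNAs), which was 59 with the slide as a fixed block (4.31%, against 4.08%) and 75 as a random block (5.48%, against 7.01%). Past the adjusted threshold there were 4 XR_ RNAs with array weights, 2 with normexp background correction, 1 with a filter on all 10 arrays and 1 with a variance trend. The groups did not overlap, with MT above NS, in 54 XR_ RNAs (3.94%, background 2.35%) and, with MT below NS, in 18 (1.31%, background 3.29%). The median log2 difference, MT minus NS, was 0.11 over the XR_ RNAs tested and -0.0013 over all RNAs. The 34 higher members had log2 fold changes of 0.59 to 3.63 (median 0.74), and 16 of them were detected on all 10 arrays. The 6 lower members had log2 fold changes of -1.09 to -0.59, and 5 were detected on all 10.

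The slide 3 arrays stood at one end of most of these RNAs. In 24 of the 34 higher XR_ RNAs both slide 3 arrays lay below all 8 others, and in 5 of the 6 lower ones both lay above. Without slide 3 the counts were 11 higher and 15 lower (0.804% and 1.1% of members, background 1.74% and 1.4%), and the median log2 difference was 0.02. The groups without slide 3 did not overlap in 91 XR_ RNAs with MT above NS (6.65%, background 6.91%) and in 93 with MT below NS (6.79%, background 5.43%). All 34 and all 6 kept their direction without slide 3, but only XR_005988, XR_009482, XR_006726, XR_009483, XR_008266 and XR_008353 of the higher and XR_006440 of the lower still met the criteria. XR_006726 was detected on MT arrays only, as were XR_005690 and XR_005633 among the 11 higher. These passed the detection filter through the MT group alone. With the slide as a block, where MT rat 2 against NS rats 6, 7 and 10 sets the value, 10 were higher and 10 lower (0.73% each, background 0.749% and 0.858%).

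**Figure D4:**
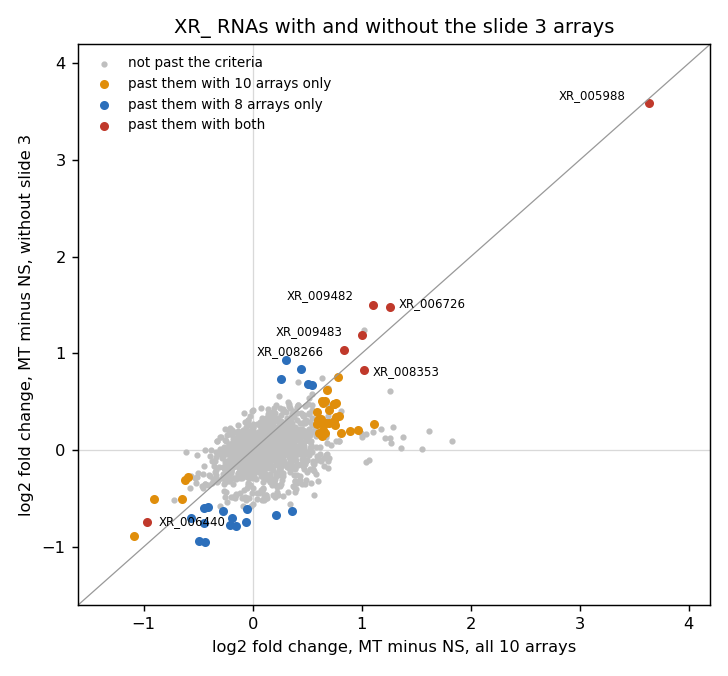
Log2 difference, MT minus NS, for each XR_ RNA with all 10 arrays (x axis) and without the slide 3 arrays (y axis), with the line of equality. The 7 red points met the criteria both ways, and most orange points, which met them with 10 arrays only, lie near 0.2 to 0.5 on the y axis.

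Of the 6 XR_ RNAs lower in MT, 4 were named by the study. XR_006440 read 7.43, 6.89, 7.79, 7.06 and 6.90 in MT rats 1 to 5. In NS rats 6 to 10 it read 7.62, 8.25, 8.38, 8.58 and 8.08. MT rat 3 overlapped NS rat 6 and no other pair of rats crossed. The means were 7.21 ± 0.39 in MT and 8.18 ± 0.36 in NS (SD, n = 5 each). The log2 fold change was -0.97 (SE 0.22, limma adjusted p = 0.104) and -0.74 without slide 3. With the slide as a fixed block, whose value rests on a single MT rat, that of XR_006440 was -1.096. Its closest mRNA profiles were Cd22, an inhibitory lectin of B cells and microglia (r = 0.98 over 10 arrays, 0.97 over 8), Per1, a clock gene, Prr5l and Tmem119, a surface protein of resident microglia (r = 0.96 and 0.94). The neighbours given here are the highest of 3887 mRNAs after the values were seen, over arrays that share slides, so their r is a description.

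XR_008800 followed the same rats. It read 6.37, 5.72, 6.86, 5.62 and 6.20 in MT and 6.51, 7.04, 7.59, 7.62 and 6.53 in NS, with MT rat 3 above NS rats 6 and 10. The log2 fold change was -0.90 (SE 0.30, limma adjusted p = 0.200) and -0.51 without slide 3. With the slide as a fixed block that of XR_008800 was -0.97. Its nearest mRNA was Cx3cr1, the fractalkine receptor of microglia (r = 0.99 over 10 arrays, 0.98 over 8). Fam110a, Capn3 and Lyl1 came next (r of 0.97 to 0.98 over 10 arrays). XR_009137 read 6.41, 5.601, 6.72, 5.86 and 5.87 in MT and 6.54, 6.76, 6.94, 6.85 and 6.61 in NS. Only MT rat 3 reached into the NS range. The log2 fold change was -0.65 (SE 0.20, limma adjusted p = 0.178) and -0.51 without slide 3. With the slide as a fixed block that of XR_009137 was -1.04. Abca4, Haao, Cd22 and Inpp5d, the last a phosphatase of blood cells and microglia, lay closest to it. XR_006440 correlated with XR_009137 at r = 0.94 and with XR_008800 at r = 0.92 over 10 arrays, and at 0.94 and 0.86 over 8.

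The microglia marker list stood beside these 3. Its 5 mRNAs had a mean log2 intensity of 11.9 to 12.4 in MT rats and 12.4 to 12.8 in NS rats. Of the 5, 1 met the criteria: Tmem119 was lower by a log2 fold change of -1.24 (SE 0.21, limma adjusted p = 0.0555), and -1.05 without slide 3. The others measured -0.50 for Cx3cr1 (-0.29 without slide 3), -0.34 for Csf1r, -0.34 for Aif1 and -0.18 for P2ry12. The part of these cells in the XR_ values was not tested, and in bulk tissue fewer cells of a type and less RNA per cell cannot be told apart.

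XR_009493, the member with the lowest log2 fold change, had another profile. It read 8.80, 9.06, 7.62, 9.42 and 8.47 in MT and 9.17, 10.19, 10.03, 10.07 and 9.38 in NS. MT rat 3 was the lowest of all 10 here, where it had been the highest MT rat for the 3 above, and MT rat 4 lay within the NS range. The log2 fold change was -1.09 (SE 0.33, limma adjusted p = 0.173) and -0.89 without slide 3. With the slide as a fixed block that of XR_009493 was -0.52. Its r with XR_006440 was 0.55 over 10 arrays and 0.30 over 8. Clic2 and Tnnc2, a chloride channel-like protein and a fast-muscle troponin, were nearest, each with r of at least 0.98 over both sets of arrays.

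The 2 other lower members, XR_006546 and XR_007910, formed a pair (r = 0.96 over 10 arrays, 0.81 over 8). XR_007910 was the only lower member past the criteria whose groups did not overlap, with 3.91 to 4.24 in MT and 4.32 to 5.10 in NS. The highest NS values of both were the slide 3 arrays, at 5.10 and 5.05 for XR_007910 and at 7.14 and 7.03 for XR_006546. The log2 fold change of XR_007910 went from -0.59 (SE 0.17, limma adjusted p = 0.163) to -0.27 without slide 3. That of XR_006546 went from -0.62 (SE 0.18, limma adjusted p = 0.164) to -0.31. With the slide as a fixed block the values were -0.25 for XR_007910 and -0.16 for XR_006546.

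The smallest adjusted p of any member belonged to XR_009070, which the fold criterion leaves out and which is named here after its values were seen. It read 9.53, 9.71, 9.41, 9.66 and 9.64 in MT and 9.89, 9.97, 10.16, 10.17 and 9.96 in NS. The groups did not overlap, and the difference was small: a log2 fold change of -0.44 (SE 0.09, limma adjusted p = 0.0795), and -0.35 without slide 3. Both slide 3 arrays lay above all others, and the log2 fold change was -0.23 with the slide as a fixed block. The limma adjusted p was below 0.05 with normexp, with a filter on all 10 arrays and with a variance trend. It was 0.485 with the slide as a random block.

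Among the higher members, 6 met the criteria with and without slide 3. Of these only XR_005988 also met them with normexp background correction, at a log2 fold change of 2.19. The others are dim, and with normexp XR_006726 was at 0.28, XR_009482 at 0.33, XR_009483 at 0.25, XR_008266 at 0.13 and XR_008353 at 0.25. Normexp here adds an offset of 50 before the log2 step, which makes differences between dim signals smaller. This alternative therefore cannot decide whether the differences of these dim members hold. With the slide as a fixed block the log2 fold change was 0.796 for XR_006726, 1.299 for XR_009482 and 1.39 for XR_009483. It was 0.87 for XR_008266, 4.91 for XR_005988 and -0.22 for XR_008353. These values rest on a single MT rat. XR_005988 stood far from the rest. It read 8.42, 9.16, 4.57, 9.45 and 8.54 in MT rats 1 to 5 and 4.28, 4.14, 4.54, 4.70 and 4.32 in NS rats 6 to 10. In 4 MT rats it was therefore at least 3.72 log2 units above every NS rat, and in MT rat 3 it was at the NS level. The log2 fold change was 3.63 (SE 0.80, limma adjusted p = 0.0978) and 3.59 without slide 3. Without MT rat 3 the limma adjusted p was 0.000211, the smallest of any XR_ RNA, while over the other alternatives it stayed above 0.05 except with array weights. Its nearest mRNAs were Klf4, a Krüppel-like transcription factor (r = 0.97), Csf3r, the receptor for granulocyte colony-stimulating factor (r = 0.96), and Socs3, a feedback inhibitor of cytokine signalling (r = 0.93), all 3 at r of at least 0.94 over 8 arrays. MT rat 3 was also the lowest MT rat for these mRNAs, though not at the NS level for Csf3r (7.94, against 7.33 to 7.79 in NS) or Socs3 (6.29, against 5.74 to 6.04). Klf4, at 9.12, lay within the NS range of 8.86 to 9.21. Of the 3, Socs3 passed the adjusted threshold (log2 fold change 0.74, SE 0.12, limma adjusted p = 0.0467). Cckbr came next after these 3 (r = 0.91).

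XR_009482 and XR_009483, with adjacent accession numbers, had similar profiles (r = 0.91 over 10 arrays, 0.93 over 8). XR_009482 read 4.99, 4.79, 5.00, 5.11 and 5.23 in MT and 4.29, 3.73, 4.86, 4.24 and 2.46 in NS. XR_009483 read 5.11, 5.17, 4.52, 5.50 and 4.94 in MT and 4.43, 3.81, 4.94, 3.96 and 3.10 in NS. In both, NS rat 10 was the lowest rat and NS rat 8 reached into the MT range. The log2 fold changes were 1.11 (SE 0.37, limma adjusted p = 0.202) and 1.00 (SE 0.32, limma adjusted p = 0.182), and 1.502 and 1.19 without slide 3. XR_009483 lay closest to Clec4e, Ptges, Clec10a and Sbno2, 2 of which are lectin receptors of myeloid cells and 1 the inducible prostaglandin E synthase. XR_009482 lay closest to Cd36, S100a11, Tnfrsf18 and Nfe2, Cd36 being a scavenger receptor of macrophages and endothelium.

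XR_008266 was the only one of these 6 whose groups did not overlap, at 3.98, 3.75, 3.62, 4.28 and 3.70 in MT and 3.34, 2.67, 3.12, 3.37 and 2.66 in NS. It was detected on 5 MT arrays and on only 1 NS array, so its difference rests on NS signals mostly not well above background: the measured log2 fold change was 0.84 (SE 0.18, limma adjusted p = 0.0974), and 1.04 without slide 3. Mrc1, the mannose receptor of perivascular and meningeal macrophages, and Ccr1, a chemokine receptor of myeloid cells, were its nearest mRNAs (r of 0.93 for both). Dll1 and Hoxd13 came next (r of 0.92 and 0.91). Ccr1 itself was higher in MT by a log2 fold change of 1.37 (limma adjusted p = 0.0287). XR_008353 read 5.05, 3.59, 4.89, 5.38 and 4.43 in MT and 3.54, 4.16, 3.78, 3.03 and 3.73 in NS. MT rat 2 lay among the NS rats of its own slide, so the log2 fold change of 1.02 (SE 0.33, limma adjusted p = 0.186), 0.83 without slide 3, became -0.22 with the slide as a block. XR_005532, which met the criteria with 10 arrays only, kept its log2 fold change without slide 3 (0.78, SE 0.30, limma adjusted p = 0.252, and 0.76). It read 9.11, 9.35, 8.75, 9.43 and 9.43 in MT and 9.32, 8.44, 8.81, 8.03 and 7.56 in NS, with NS rats 6 and 8 inside the MT range. The immediate early genes Ier3 and Junb and the protease Adamts1 were among its nearest mRNAs (r of 0.96 to 0.98).

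Markers of blood cells were set beside these members. Of the 5 neutrophil mRNAs of the list, 2 were matched on the array, and their mean was 8.90 to 9.79 in MT rats and 8.08 to 9.03 in NS rats. S100a8 met the criteria (log2 fold change 1.44, limma adjusted p = 0.121, and 1.72 without slide 3) and Lcn2 did not (-0.24, limma adjusted p = 0.581, and -0.20). The 3 erythrocyte mRNAs matched had a mean of 9.00 to 9.64 in MT and 9.00 to 9.42 in NS. The part of blood or meningeal cells in the XR_ values was not tested.

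**Figure D5:**
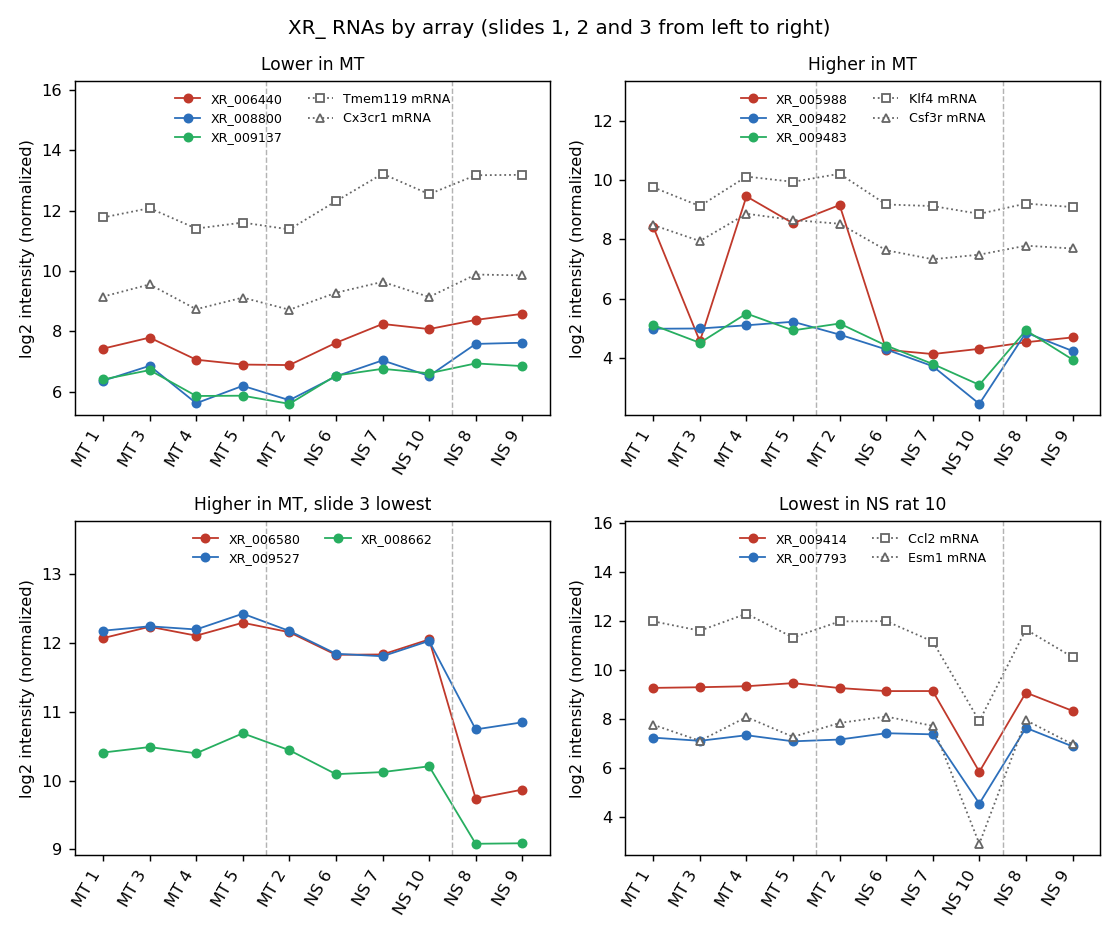
Normalized log2 intensity (y axis) of XR_ RNAs on each array (x axis, ordered by slide), in 4 panels: 3 members lower in MT with Tmem119 and Cx3cr1, 3 higher with Klf4 and Csf3r, 3 higher whose lowest arrays are on slide 3, and 2 lowest in NS rat 10 with Ccl2 and Esm1. XR_005988 is at 8.42 to 9.45 in 4 MT rats and at 4.57 in MT rat 3.

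Both slide 3 arrays lay below all others in 24 of the 34 higher members and in none of the higher members described so far. XR_006580, the highest of the 24, read 12.07 to 12.29 in MT, 11.83, 11.83 and 12.05 in NS rats 6, 7 and 10, and 9.74 and 9.87 in NS rats 8 and 9. No MT rat overlapped an NS rat, yet the log2 fold change of 1.11 (SE 0.47, limma adjusted p = 0.283) was 0.27 without slide 3. XR_009527 read 12.17 to 12.42 in MT, 11.81 to 12.03 in NS on slide 2, and 10.74 and 10.85 on slide 3. XR_008662 had nearly the same profile (r = 0.997 over 10 arrays, 0.979 over 8), at 10.40 to 10.69, 10.09 to 10.21, and 9.08 and 9.09. Their log2 fold changes were 0.79 (SE 0.25, limma adjusted p = 0.186) and 0.76 (SE 0.24, limma adjusted p = 0.183), and 0.35 and 0.34 without slide 3. In both the MT rats stayed above the NS rats of slide 2, MT rat 2 included, by a difference under the fold criterion.

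XR_009489 kept more of its difference, with 5.81 to 6.30 in MT, 5.43 to 5.51 in NS on slide 2, and 4.90 and 4.91 on slide 3. Its log2 fold change was 0.74 (SE 0.15, limma adjusted p = 0.0899) and 0.48 without slide 3. XR_007751, XR_007038, XR_006798, XR_006212 and XR_006887 also had groups that did not overlap, with log2 fold changes of 0.60 to 0.66 that were 0.14 to 0.32 without slide 3. XR_006798 was bright, at 16.25 to 16.41 in MT, while XR_007038 was near the detection limit, at 3.30 to 3.37. XR_008674, named by the study, went from 0.76 (SE 0.29, limma adjusted p = 0.252) to 0.26 without slide 3 and to 0.01 with the slide as a block. XR_006924 and XR_007038 were detected on 5 MT arrays and on only 1 NS array, at log2 intensities of at most 3.43, so their differences rest on NS signals mostly not well above background. The measured value of XR_006924 was 0.66 (SE 0.19, limma adjusted p = 0.156), 0.51 without slide 3, 0.32 in the deposited table and 0.10 with normexp. That of XR_007038 was 0.37 in the deposited table and 0.05 with normexp, whose added offset makes differences between dim signals smaller. The last 3 higher members, XR_006076, XR_006670 and XR_008291, did not have this profile. XR_006670 read 11.67, 12.23, 11.06, 12.04 and 12.46 in MT and 11.22, 11.11, 11.04, 11.20 and 11.48 in NS, with MT rat 3 among the NS rats. Their log2 fold changes were 0.74, 0.68 and 0.64 (limma adjusted p = 0.201, 0.212 and 0.249), and 0.47, 0.62 and 0.51 without slide 3.

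Leaving out slide 3 did not free the comparison of slides, because 4 of the 5 MT rats then lay on slide 1 and all NS rats on slide 2. Of the 15 XR_ RNAs lower in MT in that comparison, 13 read higher on all 4 arrays of slide 2, MT rat 2 included, than on any array of slide 1, and 10.8% of all XR_ RNAs did so. Of the 11 higher, 7 read lower on all of slide 2, as 10.1% of all XR_ RNAs did. XR_006950 is an example, at 5.19 to 5.54 on slide 2 and 3.63 to 4.07 on slide 1, with MT rat 2 the highest of all. XR_007499, singled out after its values were seen, did not follow the slides. It read 12.14 to 12.41 in MT and 11.23 to 12.04 in NS, a log2 fold change of 0.55 (SE 0.14, limma adjusted p = 0.129) and 0.67 without slide 3. Its nearest mRNA was Cebpb, a transcription factor of acute-phase and myeloid genes (r = 0.98).

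The last XR_ RNAs with a gap of more than 2 log2 units, other than XR_005988, were set apart by 1 rat, in each case an NS rat. XR_009414 read 5.83 in NS rat 10 and 8.32 to 9.46 in the 9 others. XR_007793 read 4.54 in NS rat 10 and 6.87 to 7.63 in the others, and the 2 profiles had an r of 0.96. Esm1, an endothelial product, was among the nearest mRNAs of both, and the chemokines Ccl2 and Cxcl1 among those of XR_009414. Ccl2, Cxcl1 and Esm1 read 7.91, 6.63 and 2.89 in NS rat 10 and at least 10.52, 9.59 and 6.96 in the others. In this rat the 2 meningeal fibroblast mRNAs matched had a mean of 7.11, the lowest of the 10 rats, against 7.97 to 9.34 in the other NS rats. The mean of the 2 endothelium mRNAs tested was also lowest in this rat, at 10.34, against 10.56 to 10.99 in MT rats. Other lists moved in it too: its microglia mean was the lowest of the NS rats (12.37), and its oligodendrocyte mean was the highest of the 10 rats (15.66). The part of any of these kinds of cell in the XR_ values was not tested. XR_005575 was lowest in NS rat 8 (8.25, against 10.36 to 12.60) and XR_008949 in NS rat 9 (1.91, against 3.97 to 4.21). MT and NS did not differ past the criteria in any of these 4, and their log2 fold changes of 0.41 to 1.26 had limma adjusted p values of 0.352 to 0.709. Without slide 3 the values were 1.24 for XR_009414, 0.70 for XR_007793, 0.62 for XR_005575 and 0.10 for XR_008949. The groups did not overlap, with MT above NS, in XR_009414 (9.25 to 9.46 in MT, at most 9.13 in NS). The same held for XR_008949 (4.07 to 4.21 in MT, at most 4.06 in NS), and both are among the 54 counted above.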

How the data were processed

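The authors labelled total RNA with random primers, hybridized it to Agilent-scanned Arraystar 4 × 44K arrays and extracted the spots with Feature Extraction 11.0.1.1. Deposited by the authors were linear spot intensities, already background-subtracted, with quality flags, and their own log2 intensities after quantile normalization. Here log2 intensities of the 42136 non-control spots (floor 1, lowest 1.71) went through quantile normalization in limma 3.58.1 (R 4.3.3). Outlier spots were dropped, spots averaged per probe and probes per RNA, and RNAs tested if detected, by more than 50% of their spots, on at least 5 arrays. MT and NS were compared with limma, with Benjamini-Hochberg adjusted p over all 20284 RNAs. The deposited log2 table had r of at least 0.997 with these values on each array over 1362 XR_ RNAs.

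Members, lists and tests were chosen with earlier results of these data known. The XR_ RNAs named are the 15 the study names, up to 10 per direction past the criteria with no overlap of the groups, up to 4 detected in one group, up to 4 per co-varying group and the 4 with the smallest SD. Others are marked as chosen after their values were seen. Gene symbols of mRNAs came from RefSeq, for 12486 of 13373. The marker lists other than microglia and neutrophils (neurons, motor neurons, lumbar Hox, oligodendrocytes, astrocytes, erythrocytes, muscle, dorsal root ganglion, Schwann cells, meningeal fibroblasts and endothelium) had 0 mRNAs past the criteria. The steps were tested on simulated arrays with independent noise and no slide effect, so that test does not bear on differences between slides. Alternatives were 75th percentile scaling, normexp (on median signals, offset 50, chosen after seeing the data, as was leaving out slide 3), the deposited table, other filters, the methods' Student test, a variance trend, array weights, slide blocks and leaving out each rat. Figures used matplotlib. Precision is limited by 10 arrays, and nothing in the sources says whether RNA extraction or labelling was split, so p values measure the spread between these rats and slides.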

Additional observations from a re-analysis of the deposited data

Results flagged for a closer look

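Within the groups of 5 rats, 1 rat lay far from the 4 others, by Dixon's ratio against its critical value of 0.71, in 6 of the 56 groups examined (28 XR_ RNAs named for a comparison or a single rat, each in MT and in NS). Chance alone sets apart about 1 in 20 groups, and the 4 members of one array were chosen for such a gap. XR_005988 read 4.57 in MT rat 3, against 8.42 to 9.45 in the other MT rats. XR_006726 read 4.05 in MT rat 2, against 4.88 to 4.96. XR_009527 read 12.42 in MT rat 5, against 12.17 to 12.24. In the NS group, XR_009414 read 5.83 and XR_007793 read 4.54 in NS rat 10, against 8.32 to 9.13 and 6.87 to 7.63 in the other NS rats. XR_008949 read 1.91 in NS rat 9, against 3.97 to 4.06.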

How the results depend on the processing

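No paired analysis was possible because no rat number is shared between MT and NS. The 34 higher and 6 lower XR_ RNAs past the criteria became 45 and 3 with 75th percentile scaling, 15 and 2 with normexp, 40 and 16 with no filter, 17 and 5 with a filter on all 10 arrays, 17 and 9 with array weights, 10 and 10 with slide as a fixed block, 16 and 4 with slide as a random block, 9 and 11 on slide 2 alone and 11 and 15 without slide 3. Of these, 22, 11, 33, 16, 10, 6, 14, 4 and 6 of the higher were among the 34. Leaving out 1 rat gave 14 (without NS rat 9) to 78 higher (without NS rat 10) and 4 to 12 lower. Without NS rats 6, 7, 8 and MT rat 5 the higher counts were 66, 72, 19 and 21, and without MT rat 2 the lower count was 11. The methods' Student test gave 25 and 6, and 0 after adjustment. The count past an adjusted p of 0.05, 0 with all arrays, was 2 with normexp, 1 with a filter on all 10 arrays, 1 with a variance trend, 4 with array weights and 0 to 1 without 1 rat. The 54 and 18 XR_ RNAs with no overlap became 292 and 387 on slide 2 alone, with 1 MT array (21.3% and 28.3%, background 25.8% and 22.8%), and 91 and 93 without slide 3, and leaving out 1 rat gave 57 to 103 higher. The median log2 difference of 0.11 was 0.23 with 75th percentile scaling, -0.0194 with slide as a fixed block and on slide 2 alone, and 0.0208 without slide 3. The cause of these moves was not tested, other than fewer arrays or RNAs where an alternative removes them. Over 25 members and 584 single values, the direction reversed only for XR_008353, at -0.22 with slide as a fixed block and on slide 2 alone, and 154 values no longer met the criteria. The difference in detected share of 11.7 percentage points was 23.1 without slide 2 and 3.79 without slide 3. The 17 co-varying groups became 11 at a correlation of 0.95. Signal over background limits the 347 dimmest members.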
